A study of Caenorhabditis elegans with 2 samples.

Results

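Genes that specify motor neuron fate in Caenorhabditis elegans were examined for binding of the tagged transcription factor CND-1. The 10 genes are unc-3, unc-30, vab-7, ceh-12, unc-4, unc-37, unc-55, mab-9, cfi-1 and bnc-1, chosen by name from 19973 nuclear protein-coding genes. They were named with earlier results of these data known. For each gene every region whose summit lay from 3000 bp upstream of the gene's 5′ end to the gene end was collected from the deposited peak lists. Chromatin immunoprecipitation followed by sequencing (ChIP-seq) had been done with an anti-GFP antibody on 2 biological replicates of whole embryos of strain OP349, labelled as mixed in stage and sex, collected by egg bleaching, with an age of 3 hours. The strain is unc-119(ed3) and carries the insertion wgIs349, which supplies CND-1 fused at its C-terminal end to GFP and FLAG. The antibody field of the labels reads cnd-1, while their description names anti-GFP. Both replicates form 1 group, so no comparison between conditions and no test was made. Motor neurons are a minority of the cells of a whole embryo, and a peak list does not tell in which cells a site was occupied. The neuron types named below are those in which each gene is known to act. The labels do not say which of these types the embryos held, so weak or absent peaks say nothing about a type.

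CND-1 belongs to the NeuroD group of basic helix-loop-helix (bHLH) proteins, is found in embryonic neuronal precursors and is needed for the normal fates of ventral cord motor neurons. In the ventral cord, terminal selectors turn on the transmitter and receptor genes that motor neurons share. UNC-3 does so in cholinergic and UNC-30 in GABA motor neurons. Class-specific factors, mostly repressors, then divide these neurons into types such as DA, DB, VA, VB, DD and VD. NeuroD-family proteins bind E-boxes, sites that read CANNTG, and CAGATG, which reads CATCTG on the opposite strand, is among them.

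Members of the set differed widely in binding. Thresholded peaks lay at unc-37, unc-30 and unc-3, and the other 7 genes had none. The sequences below are the 100 bp around 3 of these summits and around the strongest region at vab-7, which fell below the threshold. They are shown as the thresholded sites of both terminal selectors and the strongest site of a gene without a thresholded peak. The windows of both unc-37 peaks, 1 of them the strongest of the set, are not printed here. All are read from the RefSeq sequence of WBcel235 (ce11), plus strand, which is the coding strand of these genes, with every E-box in capitals.
unc-30 intron, chrIV:13121446-13121545: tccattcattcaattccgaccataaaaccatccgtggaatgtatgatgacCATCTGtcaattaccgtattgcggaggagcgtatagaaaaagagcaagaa
unc-30 upstream, chrIV:13116778-13116877: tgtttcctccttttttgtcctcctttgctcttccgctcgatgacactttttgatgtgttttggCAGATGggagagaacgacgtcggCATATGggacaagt
unc-3 intron, chrX:14779288-14779387: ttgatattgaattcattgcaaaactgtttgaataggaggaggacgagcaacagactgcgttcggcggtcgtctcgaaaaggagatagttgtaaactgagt
vab-7 intron, chrIII:10923339-10923438: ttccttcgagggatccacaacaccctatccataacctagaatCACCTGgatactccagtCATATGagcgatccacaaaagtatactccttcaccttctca

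Both unc-30 windows hold CAGATG, in the intron as CATCTG and upstream as CAGATG. The upstream window also holds CATATG. The unc-3 window holds no E-box, and the vab-7 window holds CACCTG and CATATG. Over the 5 thresholded summits of the set, 3 windows had an E-box and the same 3 had CAGATG, the third being at unc-37. Among all 1940 nuclear thresholded summits 49.4% had an E-box and 17.4% had CAGATG. With 5 summits this is a description and shows no difference from other peaks. Among the 31 regions of the set that fell below the threshold, 15 had an E-box and 1 had CAGATG. Of all 28036 regions below the threshold, 37.97% had an E-box and 6.13% had CAGATG. Another E-box, CAGCTG, was in 0 of the 5 and 1 of the 31 windows, against 6.86% and 3.20% of all summits above and below the threshold.

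Letters bound by members themselves were also searched, on both strands and in the same 100 bp. The COE letters (TCCC, 2 bases of any kind, GGGA), which resemble the site of UNC-3, were in none of the 36 windows of the set, against 0.155% of all thresholded summits and 0.0749% of regions below the threshold. TAATCC, which Pitx-type homeodomains such as UNC-30 bind, was in 0 of 5 thresholded windows and 3 of 31 below the threshold, against 2.47% and 3.60% overall. TAATTA, a general homeodomain site, was in 0 of 5 and 2 of 31, against 2.32% and 2.89%. None of these motifs can itself contain an E-box. No match says only that these letters are not in the window.

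In all, 3 of the 10 genes had a thresholded summit in the window, beside a background of 11.04% of all protein-coding genes (2206 of 19973). The windows of the set were longer, with a median of 8165 bp (range 4477 to 13031), against 5027 bp for all genes. Among the 12212 protein-coding genes with windows in that range the background was 11.8%. The 5 summits in 76.5 kb of window came to 6.54 per 100 kb, against 2.11 per 100 kb over the windows of all protein-coding genes. The whole density rests on the 3 genes. Because the 10 genes were named with earlier results of these data known, their count and density are a description. Each of the 5 summits had the member's own transcript start as the nearest protein-coding start, a rule that 6.79% of all genes met. All 5 also had a summit no more than 100 bp away in each replicate when its list was cut to the 1964 strongest regions, the size of the thresholded list. By that rule 8.11% of all genes had a peak. Agreement between replicates was built into the thresholded list, which was made from them.

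**Figure D1:**
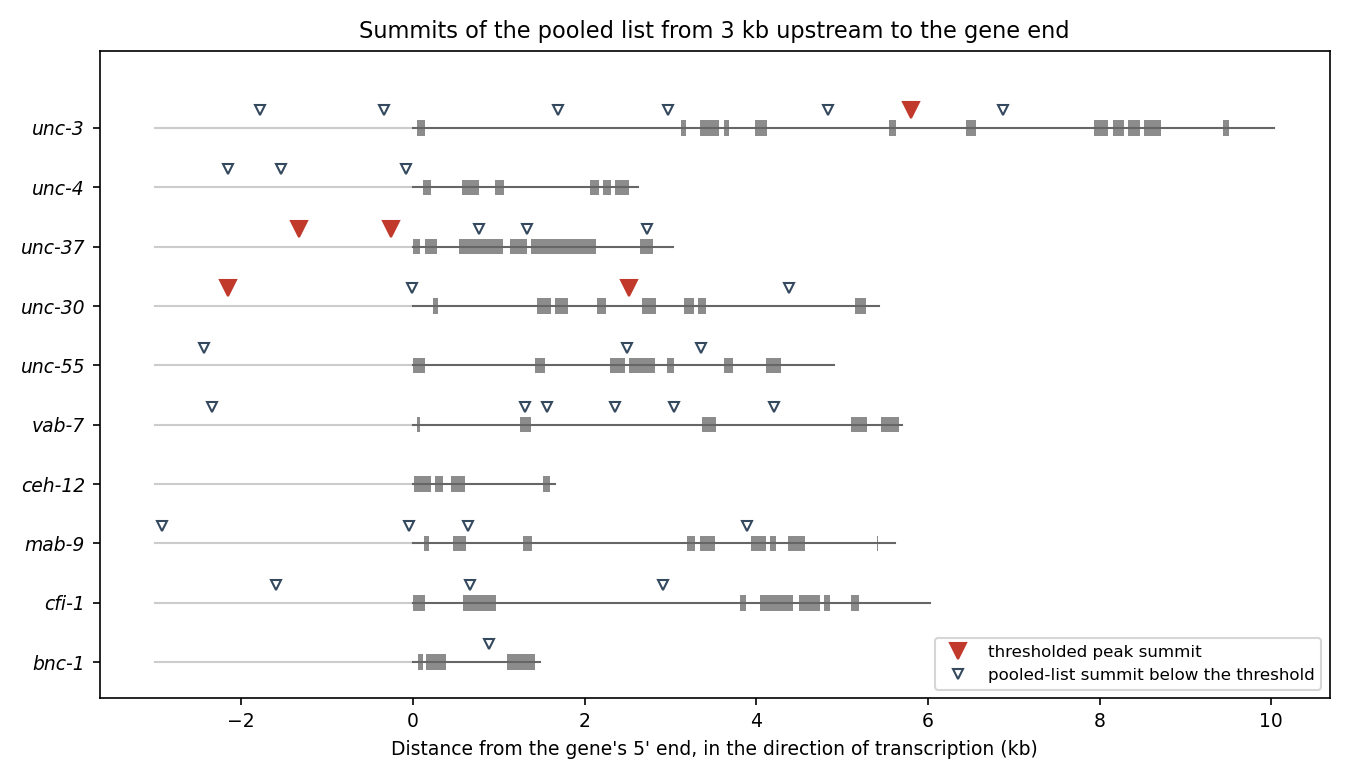
Map of the 10 genes from 3 kb upstream to the gene end, with coding exons as grey boxes and the x axis giving kb from the gene's 5′ end. Filled red marks are the 5 thresholded summits, at unc-3, unc-37 and unc-30, and open marks the 31 other summits of the pooled list. The row of ceh-12 has none.

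The strongest binding was in front of unc-37, which encodes the Groucho-type co-repressor that works with UNC-4 and other homeodomain proteins. The gene (WBGene00006773, I:6742299-6745329, minus strand) had 2 thresholded peaks, both upstream. The stronger lay 1330 bp upstream (I:6746609-6746708), with a signal of 374 and rank 143 among the 29976 nuclear regions of the pooled list. Signal is the peak caller's own value and has no stated scale, so it was compared only within a list. This site ranked 101 in replicate 1 (signal 203) and 159 in replicate 2 (signal 190). It falls in an intron of fnci-1, a neighbouring gene on the same strand, 6372 bp downstream of the fnci-1 start. The weaker peak lay 255 bp upstream of unc-37 (I:6745386-6745781), with a signal of 130 and rank 1271. Its ranks were 977 in replicate 1 and 1885 in replicate 2, the last close to the end of the strongest 1938 nuclear regions of that replicate. Within the gene 3 weaker regions ranked 7049, 19318 and 27575, and each was matched within 100 bp in 1 replicate list only. The peak 1330 bp upstream thus stood high in every list, and the peak by the start stood just within the limit in replicate 2. Of all protein-coding genes 0.961% had a stronger region than unc-37.

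A pair of sites at unc-30 had nearly equal strength. UNC-30 is a Pitx-type homeodomain protein that directs the GABA fate of D-type motor neurons. The gene (WBGene00006766, IV:13118977-13124406, plus strand) has 3 annotated starts. The first peak lay 2519 bp into the gene, in intron 4 of 7 of the longest transcript (IV:13121298-13121693), 324 bp downstream of the internal start. It had a signal of 165, rank 815 in the pooled list, rank 876 in replicate 1 (signal 78.8) and rank 966 in replicate 2 (signal 80.6). The second lay 2149 bp upstream of the gene (IV:13116630-13117025), with a signal of 155 and rank 919, and ranks of 1037 and 910 in replicates 1 and 2 (signals 72.9 and 83.4). Which of the pair was stronger changed between the replicates, so their order is not larger than the spread between replicates. A region 11 bp upstream of the first start stayed below the threshold, with rank 6548 in the pooled list, 6268 in replicate 1 and 15384 in replicate 2. A further region in the last intron ranked 24770. All 4 regions of the unc-30 window had a match within 100 bp in both full replicate lists. Both peaks are thus away from the first start of unc-30, where the signal was weaker.

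At unc-3 the peak was inside the gene. UNC-3 is the COE-family (EBF-type) selector of cholinergic motor neurons. The gene (WBGene00006743, X:14773538-14783568, plus strand) had 1 thresholded peak, 5800 bp from its only annotated start, in intron 6 of 11 (X:14779140-14779535). The signal was 140 and the rank 1116, with ranks of 1457 in replicate 1 (signal 61.1) and 1013 in replicate 2 (signal 78.8). The summits in the replicates lay 8 bp and 0 bp from the pooled one. This peak is far from the annotated start of unc-3. It therefore did not count where summits had to lie within 1500 bp before or 500 bp after a transcript start of the gene. By that rule 2 of the 10 genes had a thresholded summit, unc-37 and unc-30, beside 7.38% of all protein-coding genes. The other 6 pooled regions of the window ranked from 6006 to 26799. They include 1 site 338 bp upstream of the start, ranked 14453, which overlaps the non-coding RNA gene Y16B4A.3 and had no match in replicate 2. The thresholded signal at unc-3 was at 1 intronic site and not at the start of the gene. Of all protein-coding genes 6.94% had a stronger region than unc-3 and 5.27% a stronger region than unc-30.

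**Figure D2:**
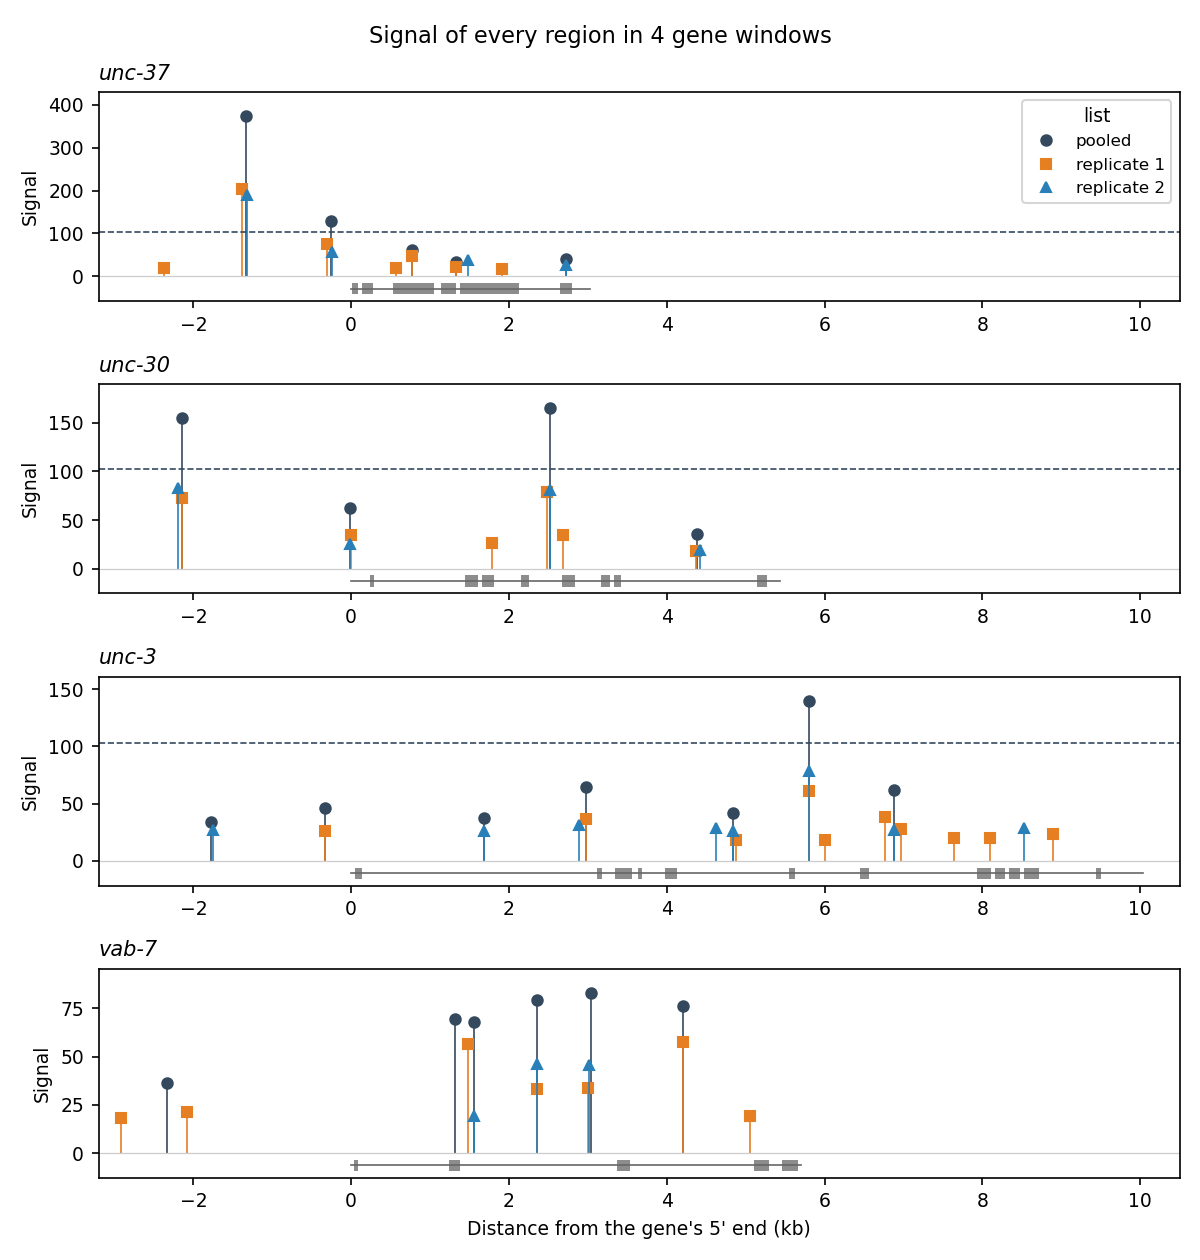
Signal of every region (y axis, the authors' value, from 0) by distance from the gene's 5′ end in kb, for unc-37, unc-30, unc-3 and vab-7, with coding exons as grey boxes. Circles are the pooled list, squares replicate 1 and triangles replicate 2. The dashed line is the lowest signal of a thresholded peak, 103, and applies to the circles only. The unc-37 site reached 374, while no vab-7 region passed 83.0.

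The determinants of B-type motor neurons, vab-7 and ceh-12, had no thresholded peak but differed in the regions within their windows. VAB-7 is the Even-skipped homeodomain protein of DB neurons. The gene (WBGene00006873, III:10920344-10926041, plus strand) had 5 pooled regions inside it, spread from 1311 to 4211 bp after the start. Their ranks were 3091, 3408, 3833, 4820 and 5176 (signals of 83.0, 79.5, 76.0, 69.6 and 67.9), all below the last rank of the thresholded list, 1940, but close together in strength. The strongest lay in intron 2 of 4, 3045 bp after the start (III:10923191-10923586). The region of rank 4820 had no match within 100 bp in either replicate list, and it overlapped the region of rank 5176.

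The replicates disagreed on which vab-7 site was strongest. In replicate 1 the leading regions lay 4211 bp and 1475 bp after the start, with ranks 1655 and 1724, both among the strongest 1942 nuclear regions of that replicate. Replicate 2 had no region within 100 bp of the first of these, and only a region of rank 26755 near the second. Its leading regions, ranked 3101 and 3195, lay 2355 and 3008 bp after the start, where replicate 1 had ranks 7038 and 6731. So 2 sites within the gene were seen in both replicates at moderate rank. The strongest site of replicate 1 had no match in replicate 2, and its second site had only a weak one.

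No region of any list lay in the window of ceh-12, the HB9-type homeobox gene of VB neurons (WBGene00000436, I:5840282-5841940, plus strand). The gene sits in a stretch of 7443 bp without a summit in any of the 4 lists. Upstream of the window, the pooled list had a region at -4747 bp from the gene start (rank 9496). Replicate 2 had one at -4665 bp (rank 3078). Past the gene end, also outside the window, the pooled list had a region with rank 2185, stronger than any pooled region of vab-7. That region was named after its values were seen and is described at the end. Of all protein-coding genes 16.9% had no region in any list, and 70.1% had a region in the pooled list, against 9 of the 10 genes here. These shares were not matched for window length. An empty window does not show that a site was unbound, since depth and mappability were not tested here.

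The class-specific repressors had weak regions only. UNC-4 is a homeodomain repressor of VA and DA neurons, and unc-4 (WBGene00006744, II:9897751-9900376, minus strand) had 3 pooled regions, all upstream. The leading ones lay 1535 and 2160 bp upstream, with ranks 9425 and 9600. In replicate 1 the site at 1535 bp ranked 12026, in replicate 2 it ranked 17999, and replicate 2 was strongest 2089 bp upstream with rank 5867. UNC-55, a COUP-TF-type nuclear receptor of VD and AS neurons, had its leading region 2499 bp inside the gene unc-55 (WBGene00006790, I:7898434-7903334, minus strand), with rank 4910. That site was the strongest in both replicates, with ranks 4761 and 9984, but the nearest transcript start was that of F55D12.6, 1097 bp away. The best rank at either gene in any list was 4761.

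CFI-1, an ARID protein that represses glr-4 in some ventral cord motor neurons, had a different leading site in each list. At cfi-1 (WBGene00000476, I:9993906-9999928, minus strand) the pooled list led with a coding-exon region 662 bp after the start (rank 7819). Replicate 1 led 1516 bp upstream (rank 8588) and replicate 2 led 2916 bp after the start (rank 4513). The T-box gene mab-9 (WBGene00003106, II:516024-521635, plus strand), known first for cell fates in the male tail, had a best rank of 15308 in the pooled list, 12149 in replicate 1 and 19649 in replicate 2. The last 2 were different sites, 3891 and 3270 bp after the start. The basonuclin-type zinc finger gene bnc-1 (WBGene00044791, V:12275570-12277046, minus strand), which acts in VA and VB neurons, had 1 pooled region, ranked 20134. Replicate 2 had no region in its window. The sites at mab-9 and bnc-1 were thus not found by both replicates.

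**Figure D3:**
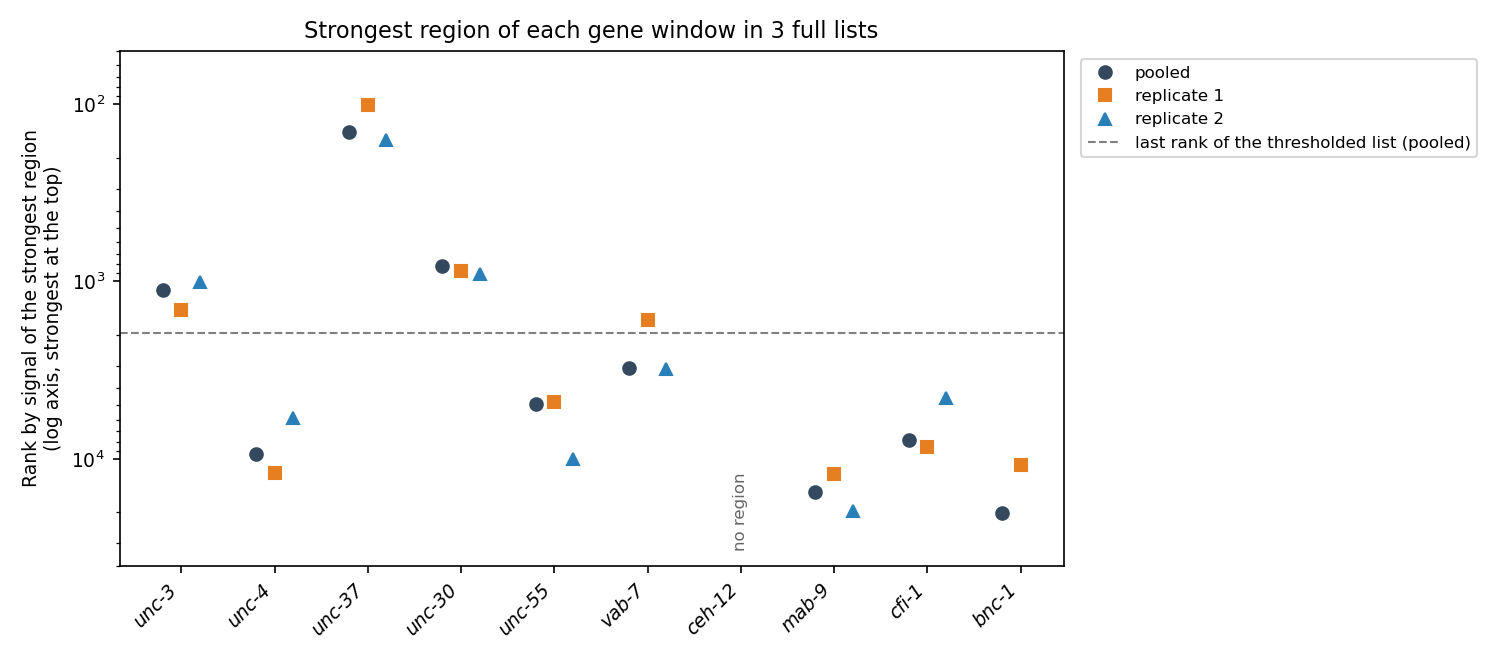
Rank by signal of the strongest region in each gene's window (y axis, log scale, strongest at the top) in the pooled list (circles), replicate 1 (squares) and replicate 2 (triangles). The dashed line is rank 1940, the last of the thresholded list. All 3 symbols of unc-37, unc-30 and unc-3 lie above it, and replicate 1 alone puts vab-7 above it. bnc-1 has no symbol for replicate 2.

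Over the set, the median best rank of the 9 genes with a region was 4910, against 8622 for all protein-coding genes with a region. The windows of the set were longer, and these medians were not matched for window length. The genes fall in order as unc-37, unc-30, unc-3, vab-7, unc-55, cfi-1, unc-4, mab-9 and bnc-1, with ceh-12 unranked. Neighbours in the middle of this order, from unc-55 to unc-4, changed places between the replicates. In replicate 2 unc-55 ranked below cfi-1 and unc-4, and in replicate 1 it ranked above both. In replicate 1 bnc-1 ranked above mab-9 and unc-4. By best pooled rank, the gene just inside the threshold was unc-3 at rank 1116 and the one just outside was vab-7 at rank 3091. The weakest thresholded peak of the set was the second one of unc-37, at rank 1271.

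**Figure D4:**
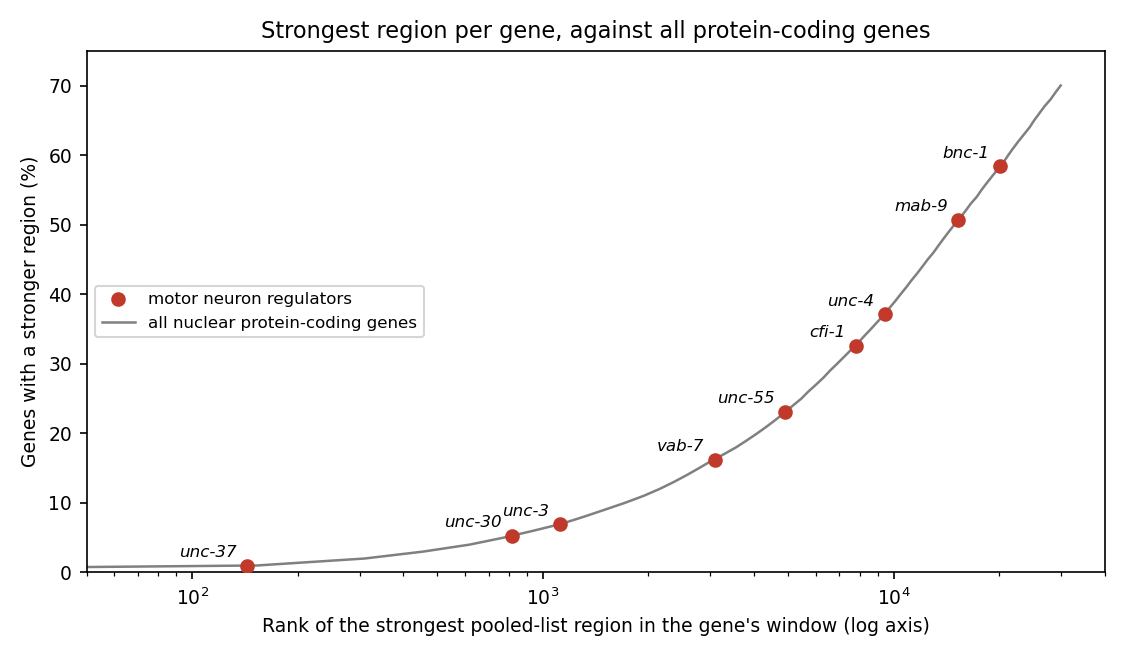
Share of protein-coding genes with a stronger region (y axis, percent) by the rank of the strongest pooled-list region in the gene's window (x axis, log scale). Red points are the 9 genes of the set with a region and the grey line all 19973 genes. By definition the points lie on the line, and they run from unc-37 at 0.961% to bnc-1 at 58.4%.

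The 36 pooled regions of the set were mostly intronic or upstream. Introns held 18, upstream sequence 14 and coding exons 4. Of the 5 thresholded summits 3 were upstream and 2 in introns. No tRNA, snoRNA or snRNA gene was within 100 bp of any of the 36. The set had 4.71 pooled regions per 10 kb of window, against 3.18 per 10 kb over the windows of all protein-coding genes. unc-3, vab-7 and unc-37 had 5 or more, as did 10.3% of all genes. unc-37 and unc-30 had 2 thresholded summits, and 1.54% of all genes had 2 or more. Neither share of all genes was matched for window length. Of the 31 regions below the threshold 11 (35.5%) had a match within 100 bp in both full replicate lists, close to the 31.2% of all such regions, and 5 of the 36 were matched in neither.

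Among other regulators of motor neuron and related fates, 7 of 29 genes (24.1%) had a thresholded summit in the same window, beside 11.04% of all protein-coding genes. The list was written with earlier results of these data known, and the share was not matched for window length, so it is a description. The strongest was at ceh-20, the Pbx-type partner of Hox proteins, 868 bp upstream (signal 469, rank 80, and ranks 124 and 46 in replicates 1 and 2). ztf-11, a zinc finger gene of neurogenesis, had a peak 173 bp upstream (rank 358). egl-44, of the TEAD family, had a peak in an intron (rank 515). egl-46, a zinc finger partner of EGL-44, had 3 peaks with a best rank of 807. unc-62, the Meis-type Hox partner, also had 3, with a best rank of 946. The LIM homeobox gene lim-4 (rank 1452) and the ZEB-type gene zag-1 (rank 1924) had intronic peaks. These last 2 ranked 2178 and 2845 in replicate 1 and 1094 and 1518 in replicate 2, so these peaks stood among the strongest regions in replicate 2 only. Another region in the zag-1 window was among the strongest of replicate 1. The bHLH gene hlh-14 fell just short at rank 2043. The Hox genes ceh-13, lin-39, mab-5, egl-5, php-3 and nob-1 had none, the best pooled rank being 3179 at nob-1, though the strongest regions of replicate 1 alone include one at nob-1.

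Effector genes of cholinergic and GABA motor neurons had no thresholded peak. Of the cholinergic motor neuron genes, 0 of 11 had one. The list includes unc-17 and cha-1, which share a locus, cho-1 and acr-2. Of the GABA motor neuron genes, 0 of 7 had one. They include unc-25, for glutamate decarboxylase, and unc-47, for the vesicular GABA transporter. The best pooled ranks were 2582 at glr-4, 5552 at ace-2 and 6130 at unc-25. With 11.04% of all genes having a summit, a count of 0 in lists of this size does not set them apart.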

How the data were processed

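ChIP-seq peaks from 2 biological replicates of 1 group were used. The authors deposited 4 lists with ce11 coordinates, per the file headers and readme. Lists for each replicate and for the pooled reads hold 30000 regions each, peaks mixed with background to feed the irreproducible discovery rate (IDR) step, and the thresholded list holds 1964, of which 1940 are nuclear. All 1940 stand in the pooled list with the same position and signal, and they are its 1940 strongest nuclear regions. Signal (narrowPeak column 7) is the value the authors deposited for each region, and ranks were taken from it among nuclear regions. The −log10 q-value the authors deposited was not used for ranks or calls. The aligner, the peak caller and the IDR cut-off used are not stated in those sources. The labelled control was not used here, and sequencing depth is unknown.

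Genes came from Ensembl release 115 (WBcel235). All 10 symbols matched, and no region ran past its chromosome's end in that assembly. Summits (start plus offset) were placed in windows by Python 3.11.15 and NumPy 2.4.6, and the search was tested on simulated data. Motifs were sought on both strands of 100 bp around summits. No test was run, since 1 group holds no comparison. Genes were named by rule: all 10, listed genes with a thresholded summit, and the gene with the nearest start. Genes of the lists named for a rank below the threshold were chosen after their values were seen. Members and lists were chosen with earlier results of these data known. Alternatives were other windows, the strongest peaks, each replicate alone, nearest genes, and other matching and motif windows.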

Additional observations from a re-analysis of the deposited data

How the results depend on the processing

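The call of 3 genes with a thresholded summit was kept with 1500 or 5000 bp upstream, with the nearest start only, and when peaks near short non-coding RNA genes were left out. It was 2 genes, without unc-3, in the strongest 970 peaks and in a window of 1500 bp upstream to 500 bp downstream of any transcript start, and each of these settings left 3 of the 5 summits. With 1500 bp upstream 4 of the 5 summits were left, without the unc-30 site 2149 bp upstream. The share of all protein-coding genes was 6.21% in the strongest 970 peaks and 6.79% with the nearest start only. The strongest regions of a single replicate gave 3 to 4 members (vab-7 joined with replicate 1 alone) and 5 to 7 summits. They gave 7 to 8 other regulators (replicate 1 alone added nob-1 and egl-43 and lost lim-4) and 0 to 1 cholinergic genes (glr-4 in replicate 2). Only 5 other regulators, without lim-4 and zag-1, were left in the strongest 970 peaks and in the window around transcript starts. With 5000 bp upstream there were 8, lim-6 being added. In the full replicate lists the median best rank was 4761 over 9 members in replicate 1 and 3807 over 8 members in replicate 2. Matching summits within 50 or 200 bp, or by overlap, kept all 3 genes in both replicates. Ranks of single genes moved by more than 1.5 times in 6 of 35 alternatives, at 5 genes. For unc-4 the best rank became 28786 with 1500 bp upstream. With 5000 bp upstream all 10 members had a pooled region, ceh-12 among them, and the median best rank was 6364. E-boxes were in 3 of 5 summits with 50 bp windows, against 30.8% of all thresholded summits, and in 4 of 5 with 200 bp windows, against 67.4%. No paired analysis was possible because there is 1 group. Depth is unknown, so weak regions cannot be told from background by their ranks. The deposited −log10 q-value of the leading pooled region was 1.31 at vab-7, 0.716 at unc-55, 0.392 at cfi-1 and 0.308 at unc-4. It was 0.151 at mab-9 and 0.0909 at bnc-1, against 3.46 at each of the 5 thresholded summits.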

Other observations

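Beyond the window of ceh-12, a region lay 1120 bp past the gene end in the pooled list, with a signal of 97.4 and rank 2185, just below the last thresholded rank of 1940. The replicates had regions 1122 and 1235 bp past the end, ranked 2586 and 2295. This site is outside the rule used for the 10 genes and was named after its values were seen.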
